A study of Mus musculus with 35 samples.

Results

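The 4 Hox clusters of the mouse were examined as chromatin domains in fibroblasts at day 4 of chemical reprogramming. The clusters were taken as 4 windows in the mm9 build, of 115 kb for Hoxa on chromosome 6, 190 kb for Hoxb on chromosome 11, 125 kb for Hoxc on chromosome 15 and 105 kb for Hoxd on chromosome 2. The windows were set by position alone, and every region of the deposited tables that overlapped one by at least 1 bp was a member. The members lay in chr6:52106479-52233041, chr11:96003756-96246541, chr15:102724453-102867987 and chr2:74479444-74611690. This gave 73 of 68221 regions: 14 of 19224 in the H3K27me3 table, 21 of 12566 in the H3K4me3 table and 38 of 36431 in the ATAC-seq table. The files name no genes, so regions are described by position, and the 38 Hox genes considered are named only to give the direction of each cluster.

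Hox genes encode homeodomain transcription factors that give cells their position along the body axis, and they lie in each cluster in the order of their numbers. Low-numbered genes such as Hoxa2 act towards the head, and the genes of group 13 act at the tail end of the trunk and in the outer parts of limbs. Polycomb complexes hold silent Hox genes under H3K27me3, Trithorax-type methyltransferases place H3K4me3 on active ones, and fibroblasts keep the Hox pattern of the place in the body they came from. Retinoic acid is a classical inducer of Hox genes, starting from the low-numbered end.

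The cells were mouse embryonic fibroblasts (MEFs) from ICR embryos after removal of head, limbs and viscera, so they are a mixture of trunk cells and not one clone. The C6FAE treatment combined 5 chemicals: CHIR99021 (C, an inhibitor of GSK3), a TGF-beta receptor inhibitor abbreviated 6, Forskolin (F, an activator of adenylyl cyclase), AM580 (A, a retinoic acid receptor agonist) and EPZ004777 (E, an inhibitor of the H3K79 methyltransferase DOT1L). CFAE, 6FAE and C6AE each lacked 1 of the core chemicals, and the AE, Basal and Ctr conditions are named in the labels without a recipe. ATAC-seq, which marks open chromatin, had 2 libraries for each of the 7 treatments, and H3K27me3 and H3K4me3 ChIP-seq had 1 library for each of 6. Total tags were 3346418 to 8764791 in ATAC-seq, 633980 (6FAE) to 6392309 in H3K27me3 and 745089 (C6AE) to 7103488 in H3K4me3. ChIP libraries titled Ctr carry another treatment in their labels and entered no comparison. No column of the RPKM tables has a replicate, since the ATAC-seq columns were merged over libraries.

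The gene order was taken from RefSeq (GRCm38.p6), in which all 38 genes were found. On Hoxa the low-numbered end, Hoxa2, has the low coordinate, whereas Hoxb, Hoxc and Hoxd begin at group 13 and end at Hoxb1, Hoxc4 and Hoxd1. Promoter entries of 300 bp were at hand for 22 of the 38 genes, as 24 sequences. Of these, 10 were of Hoxa and 10 of Hoxd, with only 3 of Hoxb and 1 of Hoxc. The median number of CG dinucleotides over the 24 sequences was 14.5, against 7 over 32851 promoter entries. The number ranged from 4 to 45. CG-dense promoters are known as places where both H3K4me3 and Polycomb are recruited. The 250 bases upstream of the start are shown for the genes at both ends of Hoxa and Hoxd, the clusters with the most and the least H3K4me3 cover, with CG dinucleotides in capitals and the strand of the gene 5′ to 3′.
Hoxa2, chr6:52164832-52165081, minus strand: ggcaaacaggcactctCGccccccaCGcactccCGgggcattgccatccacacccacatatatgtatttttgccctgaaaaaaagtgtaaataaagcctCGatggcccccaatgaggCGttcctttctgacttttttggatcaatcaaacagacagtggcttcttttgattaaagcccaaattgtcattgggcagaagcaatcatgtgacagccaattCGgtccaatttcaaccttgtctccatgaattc
Hoxa13, chr6:52260881-52261130, minus strand: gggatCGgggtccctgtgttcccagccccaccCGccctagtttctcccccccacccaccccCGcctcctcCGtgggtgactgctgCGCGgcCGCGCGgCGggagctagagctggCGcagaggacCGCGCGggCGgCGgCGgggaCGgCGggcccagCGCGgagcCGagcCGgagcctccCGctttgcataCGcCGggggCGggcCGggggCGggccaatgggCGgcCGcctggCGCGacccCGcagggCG
Hoxd13, chr2:74667975-74668224, plus strand: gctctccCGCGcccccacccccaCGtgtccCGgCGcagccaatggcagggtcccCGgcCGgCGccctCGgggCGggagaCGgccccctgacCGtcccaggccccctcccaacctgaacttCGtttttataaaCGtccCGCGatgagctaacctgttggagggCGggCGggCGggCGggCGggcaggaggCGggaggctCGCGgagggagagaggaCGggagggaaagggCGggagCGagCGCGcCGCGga
Hoxd1, chr2:74762730-74762979, plus strand: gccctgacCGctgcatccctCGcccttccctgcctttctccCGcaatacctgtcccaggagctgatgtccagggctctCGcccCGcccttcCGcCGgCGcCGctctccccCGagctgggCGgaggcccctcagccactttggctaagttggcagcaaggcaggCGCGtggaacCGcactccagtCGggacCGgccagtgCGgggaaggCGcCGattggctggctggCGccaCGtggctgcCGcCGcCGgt
The Hoxa13 stretch held 35 CG and the Hoxd13 stretch 31, Hoxd1 held 24 and Hoxa2 held 6. These coordinates are of GRCm38 and were not joined to the regions, which are in mm9.

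Motifs of the pathways that the chemicals act on were searched on both strands of the 300-bp entries. The core site of retinoic acid receptors, AGGTCA, occurred in 7 of the 24 Hox entries (Hoxa5, Hoxb4, Hoxc4, Hoxd3, Hoxd4, Hoxd8 and Hoxd10), against 16.3% of all entries. The cAMP response element TGACGTCA was found in 0 of 24, against 1.79% of all entries. Direct repeats of the core site with 5 or 2 bases between them, which contain it by construction, were found in 0 of 24, and each in 0.00913% of all entries. A missing match says only that these letters are not in this stretch.

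In the merged tables, regions of H3K27me3 covered the group 13 end of all 4 clusters, where no region of H3K4me3 lay, and they covered the whole of Hoxd. Regions of H3K27me3 covered 50.2% of the Hoxa window, 79.1% of Hoxb, 69.5% of Hoxc and 100% of Hoxd. Regions of H3K4me3 covered 61.1% of Hoxa, 29.5% of Hoxb, 25.1% of Hoxc and 14.0% of Hoxd, so Hoxa had the least H3K27me3 and the most H3K4me3 and Hoxd the reverse. ATAC-seq regions covered 32.0% of Hoxa and 11.6 to 17.0% of the other windows. In flanks as long as the window itself, H3K4me3 covered 0 to 11.9% and ATAC-seq 0 to 9.47%. H3K27me3 reached further out, with 13.2 and 55.7% of the flanks of Hoxa, 40.0 and 27.9% of Hoxb, 68.2 and 39.5% of Hoxc, and 19.6 and 6.37% of Hoxd.

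**Figure D1:**
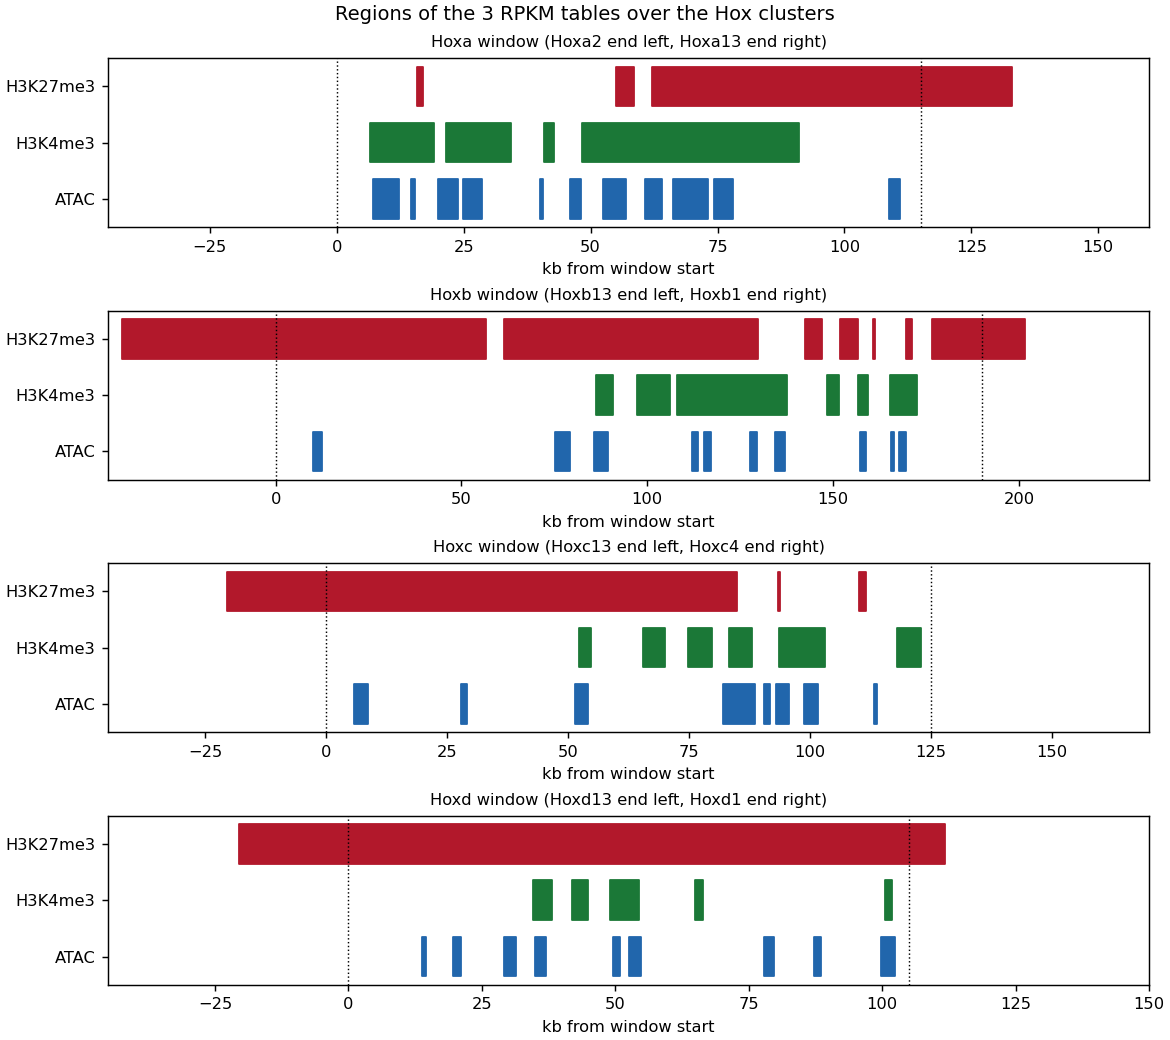
Each bar is a region of the H3K27me3 (red), H3K4me3 (green) or ATAC-seq (blue) table, drawn against the distance in kb from the start of the window, whose ends are dotted lines. H3K27me3 lies over the group 13 end of each cluster and over all of Hoxd, and H3K4me3 has no region in the outermost of 5 equal segments at that end.

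Each window was divided into 5 equal segments, counted from the low-numbered end. The segment next to group 13 was covered by H3K27me3 to 100% in all 4 clusters and by H3K4me3 to 0% in all 4. In Hoxa the H3K27me3 coverage was 5.43, 0, 45.4, 100 and 100%, and the H3K4me3 coverage 61.6, 57.9, 90.3, 95.8 and 0%. The low-numbered part of Hoxa therefore carried regions of H3K4me3 with little H3K27me3, the fourth segment carried both, and the last segment H3K27me3 alone. Hoxc showed the same order, with H3K27me3 at 5.76, 41.8, 100, 100 and 100% and H3K4me3 at 33.1, 63.0, 29.2, 0 and 0%. In Hoxb the H3K27me3 coverage was over 50% in every segment, at 53.8, 54.4, 100, 87.2 and 100%, and H3K4me3 was at 25.6, 70.8, 51.3, 0 and 0%. Hoxd was at 100% H3K27me3 throughout, and its H3K4me3 stood mostly in the middle segment, with 6.88, 6.70, 39.5, 16.9 and 0%. ATAC-seq regions were present in every segment of every cluster, at 1.89 to 55.1%, so the ends without H3K4me3 regions still held ATAC-seq regions.

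The domains were long for their tables. The single Hoxd region of H3K27me3, chr2:74479444-74611690, spanned 132247 bp and was the 10th longest of 19224. The Hoxc region chr15:102724453-102829908 (105456 bp) ranked 24th and the Hoxb region chr11:96003756-96101589 (97834 bp) 30th. The Hoxa region chr6:52162127-52233041 (70915 bp) ranked 70th and a second Hoxb region, chr11:96106471-96174772 (68302 bp), 77th. For H3K4me3, which usually marks a promoter over a few kb, the Hoxa region chr6:52148243-52191040 (42798 bp) was the 2nd longest of 12566 and the Hoxb region chr11:96152995-96182634 (29640 bp) the 3rd. The longest region of Hoxc, chr15:102838553-102848151 (9599 bp), ranked 233rd, and that of Hoxd, chr2:74549028-74554418 (5391 bp), 2474th. The median length in the H3K4me3 table was 3768 bp. The ATAC-seq regions were less extreme: the longest of Hoxa, chr6:52166305-52173176 (6872 bp), ranked 781st of 36431 and that of Hoxc, chr15:102827075-102833677 (6603 bp), 878th.

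The same domains were seen in single libraries through the peaks listed for each. The listed H3K27me3 peaks covered 77.1 to 99.2% of the Hoxd window in the 6 libraries, where they covered 8.24 to 25.9% of the effective genome. They covered 41.9 to 71.4% of Hoxa, 58.4 to 90.0% of Hoxb and 66.6 to 90.6% of Hoxc. In 4 of the 6 libraries the longest H3K27me3 peak of the whole list lay in a Hox window: in Hoxc for Basal (78800 bp), C6FAE (70227 bp) and CFAE (54145 bp), and in Hoxb for 6FAE (41219 bp). In AE and C6AE the longest peaks lay elsewhere, and the longest peaks in Hoxc ranked 7th and 15th. For H3K4me3 the longest peak of the list lay in Hoxa for Basal (36942 bp) and AE (32106 bp). In the other 4 H3K4me3 libraries the longest Hoxa peak had 5850 to 12419 bp and ranked 14th to 63rd.

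**Figure D2:**
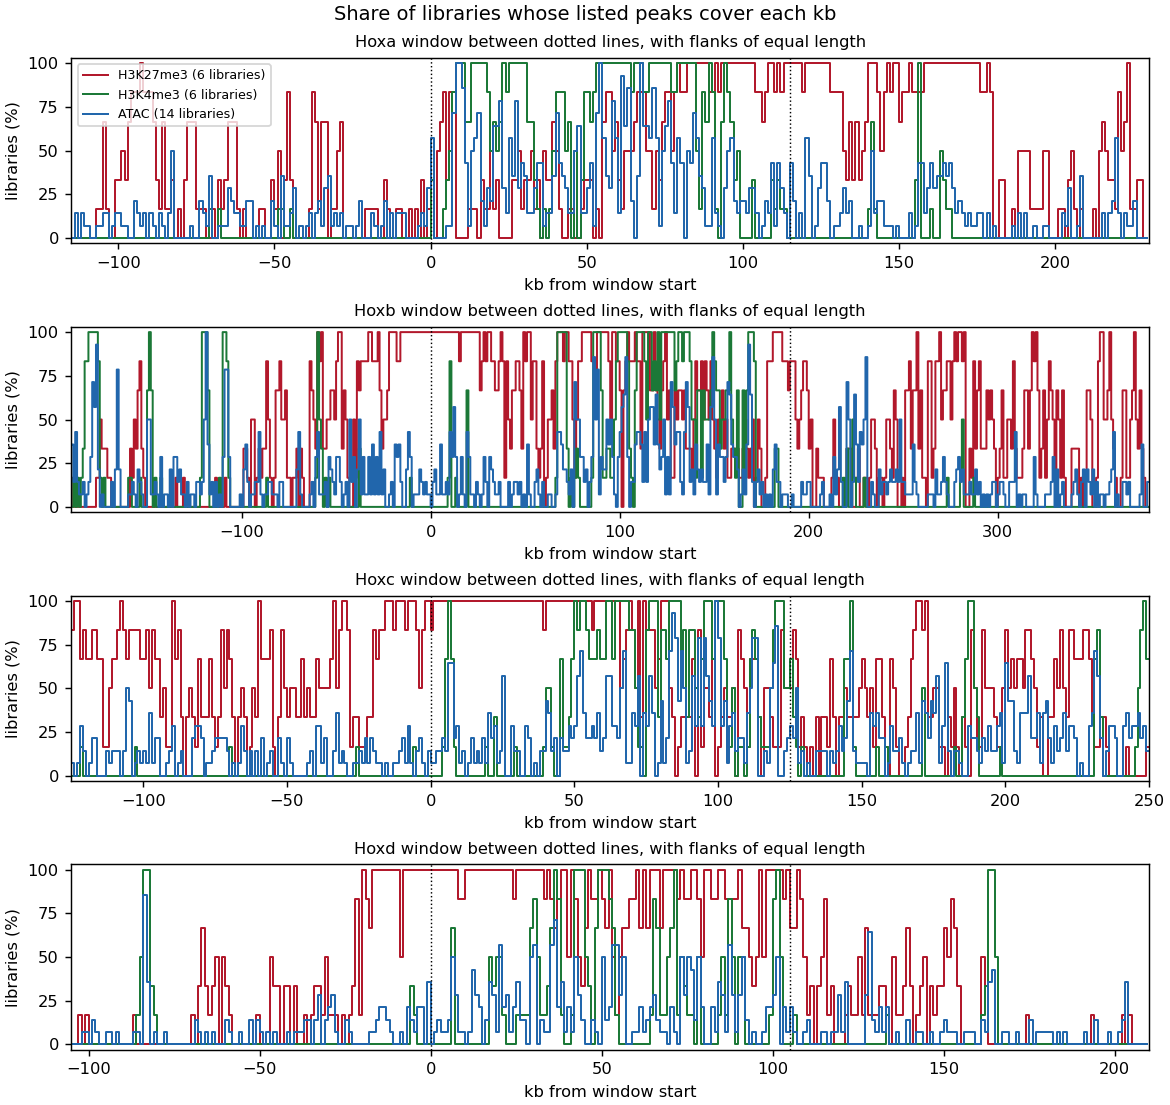
For each kb from the start of the window, with flanks of the window's own length, the percentage of libraries whose listed peaks cover at least 500 bp of that kb is drawn for H3K27me3 (red, 6 libraries), H3K4me3 (green, 6) and ATAC-seq (blue, 14). The red line reaches 100%, all 6 libraries, in 61 of 105 bins of Hoxd and in 69 of 125 bins of Hoxc.

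Counted in 1-kb bins, all 6 H3K27me3 libraries covered 25 of 115 bins in Hoxa, 63 of 190 in Hoxb, 69 of 125 in Hoxc and 61 of 105 in Hoxd. All 6 H3K4me3 libraries covered 44 bins in Hoxa, 38 in Hoxb, 27 in Hoxc and 9 in Hoxd. In the segment next to group 13, the single libraries were less uniform than the merged regions. All 6 H3K27me3 libraries covered 16 of its 23 bins in Hoxa, 29 of 38 in Hoxb, 24 of 25 in Hoxc and 19 of 21 in Hoxd. At least 1 of the 6 H3K4me3 libraries had listed peaks over 12 of these bins in Hoxa, 4 in Hoxb, 7 in Hoxc and 5 in Hoxd. All 6 H3K4me3 libraries covered 1 of these bins in Hoxa, 1 in Hoxc and 0 in Hoxb and Hoxd. Over the whole windows, all 14 ATAC-seq libraries covered 4 bins in Hoxa, 1 in Hoxc and 0 in Hoxb and Hoxd.

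H3K27me3 regions shared more of their bases with H3K4me3 and ATAC-seq regions inside the clusters than over the tables as a whole. Of the bases in H3K4me3 regions, 48.0% in Hoxa, 66.0% in Hoxb, 44.5% in Hoxc and 100% in Hoxd were also in an H3K27me3 region, against 8.84% over the whole table. Seen from H3K27me3, 58.5% of its bases in Hoxa, 24.6% in Hoxb, 16.1% in Hoxc and 14.0% in Hoxd were also under H3K4me3, against 4.20% overall. Of the ATAC-seq bases, 45.6% in Hoxa, 69.5% in Hoxb, 48.5% in Hoxc and 100% in Hoxd lay under H3K27me3, against 6.23%. H3K27me3 regions covered 50.2, 79.1, 69.5 and 100% of these windows in the same order. The shares of H3K4me3 and ATAC-seq bases under H3K27me3 were in no cluster above that coverage. In Hoxd 1 region spans the window, so its 100% was fixed. H3K4me3 lay over 82.2% of the ATAC-seq bases in Hoxa, 70.2% in Hoxb, 54.6% in Hoxc and 42.3% in Hoxd, against 41.6%, so Hoxd was close to the background. In the other direction, ATAC-seq regions lay over 43.0% of the H3K4me3 bases in Hoxa, 27.6% in Hoxb, 37.0% in Hoxc and 45% in Hoxd, all below the 62.3% of the whole table. Overlap of regions in a population of cells does not show that both marks sat on the same chromosome.

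The level of a cluster was taken as the mean of log2(RPKM + 1) over its regions, weighted by length, where RPKM is reads per kb scaled to the mapped reads. Whole regions were used, also where they reach beyond the window. H3K27me3 was above the median of its table in all 6 columns and all 4 clusters, by 0.34 to 1.98 on the log2 scale. This held for levels weighted by length. With regions weighted equally, Hoxa was below that median in CFAE (1.73 against 1.91) and C6AE (2.34 against 2.63). Hoxb and Hoxc were below it in C6AE as well, so only Hoxd, with 1 region, stayed above it in that column. Counted singly, 5 of the 14 Hox regions were above the table's median in C6AE, and 9 to 13 in the other columns. The level of Hoxc was above that of Hoxa and Hoxb in all 6 columns. H3K4me3 was below the median of its table in 5 of 6 columns for Hoxa, Hoxc and Hoxd and in 6 of 6 for Hoxb, with differences from -0.79 to 0.11. The long H3K4me3 domains were thus not the highest of their table. The ATAC-seq level of Hoxa was above the table's median in 6 of 7 columns, that of Hoxb and Hoxc in 2 of 7, and that of Hoxd in 0 of 7.

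**Figure D3:**
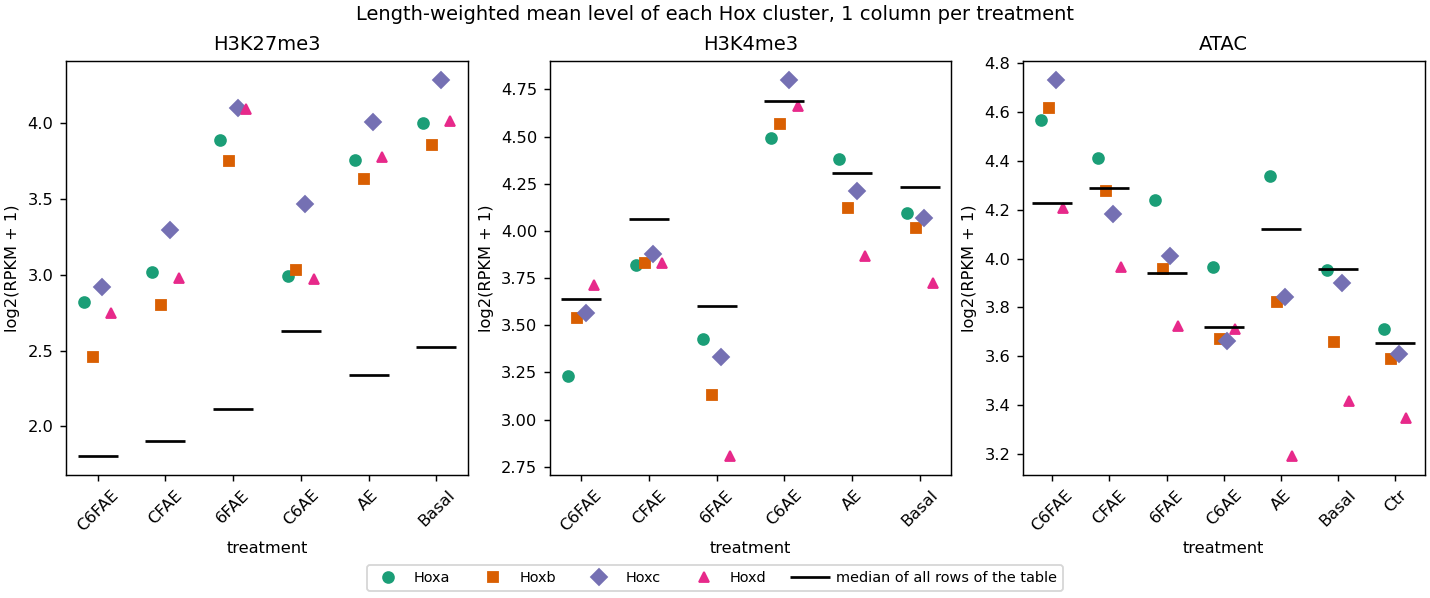
Each point is the length-weighted mean log2(RPKM + 1) of 1 cluster in 1 treatment column, and the black bar is the median of all regions of that table in the column. In H3K27me3 the columns C6FAE, CFAE and C6AE lie below 6FAE, AE and Basal in every cluster, and in ATAC-seq C6FAE is the highest column in every cluster.

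For H3K27me3, the levels with CHIR99021 lay below those without it in every cluster, whereas the levels with and without Forskolin overlapped. The Hoxd region had an RPKM of 5.71 in C6FAE, 6.88 in CFAE and 6.84 in C6AE, and of 16.1 in 6FAE, 12.7 in AE and 15.2 in Basal. The 3 columns with CHIR99021 were thus all below the 3 without. The longest Hoxc region had 6.73, 8.94 and 10.3 in C6FAE, CFAE and C6AE, and 16.6, 15.6 and 19.0 in 6FAE, AE and Basal. The Hoxa region had 6.30, 7.70 and 7.27 with CHIR99021 in the same order, and 15.2, 13.3 and 15.6 without. The first Hoxb region had 6.29, 7.23 and 10.7 with CHIR99021, and 14.7, 15 and 16.4 without. In all of these regions the columns with and without CHIR99021 did not overlap. On the level of the clusters, the mean with CHIR99021 minus the mean without was -0.94 in Hoxa, -0.98 in Hoxb, -0.90 in Hoxc and -1.06 in Hoxd, each over 3 columns against 3.

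All 3 columns with CHIR99021 were below the 3 without in 9 of the 14 Hox regions, where 11.9% of all regions had this order. The opposite order held in 0 of 14, against 4.81% of all regions. Among regions of at least 20 kb the first order, lower with CHIR99021, held in 6 of 6 Hox regions, against 22.6% of 1028. The median of all regions of the table was itself lower by 0.25 with CHIR99021. Among the 1028 regions of at least 20 kb the median difference was -0.49, and among the 6 Hox regions of that length -0.94. With centred columns these medians were -0.27 and -0.73. With each column centred on its median the differences between cluster levels were -0.73, -0.77, -0.69 and -0.85 in Hoxa, Hoxb, Hoxc and Hoxd, and the columns still did not overlap in any cluster. With quantile normalization the columns with and without CHIR99021 did overlap in Hoxa and Hoxd. There C6FAE, at 3.50 and 3.39, lay above 6FAE, at 3.19 and 3.34. This split was chosen after the values were seen and each treatment had 1 library, so it carries no test. AE and Basal lack other chemicals too, whose part cannot be told apart from that of CHIR99021.

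In the peak lists the values with and without CHIR99021 overlapped. The share of the Hoxd window under listed H3K27me3 peaks was 92.4, 81.2 and 77.1% in C6FAE, CFAE and C6AE, and 82.7, 99.2 and 93.2% in 6FAE, AE and Basal. The highest fold enrichment over input of a Hoxd peak was 3.19, 3.36 and 4.77 with CHIR99021, and 2.81, 5.31 and 4.83 without. The library of 6FAE had 633980 tags, the fewest of all, and without it the differences between levels were -0.94, -0.98, -0.92 and -1.0 in the order of the clusters.

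The Forskolin contrast compared C6FAE, CFAE and 6FAE with C6AE, AE and Basal. In every assay AE and Basal lack other chemicals too, whose part cannot be told apart from that of Forskolin. In H3K27me3 the level with Forskolin was 3.24 ± 0.57 in Hoxa (SD, n = 3) against 3.58 ± 0.53 without, a difference of -0.34. The differences in Hoxb, Hoxc and Hoxd were -0.50, -0.48 and -0.32. The columns overlapped in all 4 clusters, with exact permutation p-values of 0.5, 0.3, 0.3 and 0.8 in the order of the clusters, where the smallest p that 3 against 3 columns allow is 0.1. The median over all regions was -0.58, so relative to it the differences changed sign: with columns centred on their medians they were 0.21, 0.05, 0.07 and 0.24. The order in which all Forskolin columns were below the others held in 1 of 14 Hox regions, against 37% of all regions.

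By region, C6FAE was at least 2-fold lower in H3K27me3 than Basal in 12 of 14 Hox regions, against 32.5% of all regions, and higher in 0, against 5.36%. With centred columns this was 1 of 14 lower, against 5.81%, since the median of C6FAE was itself lower than that of Basal by 0.72. Against 6FAE, 7 regions were lower (23.6% of all) and 1 was higher (18.6%), and against AE 6 were lower (22.7%) and 0 higher (3.58%). With centred columns, 3 were lower (18%) and 1 higher (23.5%) against 6FAE, and 0 lower (3.26%) and 1 higher (10.9%) against AE. Against C6AE, 0 of 14 regions differed by 2-fold, where 25.6% of all regions were lower and 1.56% higher in C6FAE. With centred columns 3 of 14 were higher (10.5%) and 0 lower (1.42%). The largest differences between C6FAE and C6AE on the log2 scale were 0.65 at chr11:96214498-96216254 in Hoxb, at RPKM of 1.22 and 0.41, and -0.69 at chr11:96221643-96246541 in Hoxb, at 3.60 and 6.43. In Hoxa they were 0.62 at chr6:52115814-52117063 and -0.37 at chr6:52154979-52158547, and in Hoxc 0.32 at chr15:102838330-102838864 and -0.61 at chr15:102855080-102856520. Against CFAE, 2 regions were higher (4.58%) and 2 lower (6.22%), and with centred columns again 2 were higher (5.9%) and 2 lower (4.97%). AE was lower than Basal in 2 (7.96%) and higher in 0 (4.45%). Basal was the highest of the 6 columns in 10 of 14 Hox regions, against 30.2% of all.

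In H3K4me3, the levels with Forskolin were below those without in 3 clusters, as they were in the table at large. The level in Hoxa was 3.49 ± 0.30 with Forskolin and 4.32 ± 0.20 without (SD, n = 3 each), a difference of -0.83. In Hoxb and Hoxc the differences were -0.74 and -0.77, and the columns did not overlap in these 3 clusters (exact permutation p = 0.1, the smallest possible). In Hoxd the difference was -0.63, with overlapping columns and an exact permutation p of 0.2. Adjusted over the 12 tests of 4 clusters and 3 assays by the Benjamini-Hochberg method, these p-values were 0.2 and, for Hoxd, 0.3. With columns centred on their medians the differences were -0.19 in Hoxa, -0.09 in Hoxb, -0.13 in Hoxc and 0.0064 in Hoxd, where the direction turned. The centred columns overlapped in all 4 clusters. The median over all regions was -0.65, and all Forskolin columns were below the others in 13 of 21 Hox regions, against 65.4% of all, so the Hox share was close to the background. The library of C6AE, with 745089 tags, was the highest column in 20 of 21 Hox regions, against 76% of all regions, and the part of its depth in this was not tested.

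Against C6AE, C6FAE was at least 2-fold lower in 15 of 21 H3K4me3 regions, against 53.3% of all, and in 0 of 21 with centred columns, against 3.23%. The Hoxa domain chr6:52148243-52191040 had an RPKM of 8.68 in C6FAE, 12.4 in CFAE, 10.9 in 6FAE, 24.0 in C6AE, 20.3 in AE and 17.2 in Basal. The Hoxb domain chr11:96152995-96182634 had 10.9, 13.2, 8.01, 22.3, 17.4 and 15.8 in the same order. In both, all treatments with Forskolin lay below those without. The region of highest level in Hoxc, chr15:102828252-102832880, had 13.1 and 28.4. The largest differences were -1.95 at chr15:102797138-102799675 in Hoxc and -1.98 at chr2:74564968-74566375 in Hoxd on the log2 scale. In Hoxa and Hoxb they were -1.40 at chr6:52140844-52142751 and -1.45 at chr11:96201692-96204347. Against CFAE, 0 regions differed by 2-fold, where 3.6% of all were lower and 0.159% higher. Against 6FAE, 3 were higher (1.87% of all), 1 in Hoxb and 2 in Hoxd, and 0 were lower (0.979%). Against AE 4 regions were lower (17.4%) and against Basal 1 (13.3%), with 0 higher (0.215 and 0.485%). With centred columns, 0 were lower against AE (1.68%) and Basal (2.06%), and 1 was higher than in Basal (2.32%). AE and Basal differed by 2-fold in 0 regions, against 0.318% higher and 0.0716% lower of all.

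The order of the clusters in H3K4me3 differed between treatments. The level of Hoxa minus that of Hoxd within 1 column is not changed by centring that column. It was -0.48 in C6FAE, -0.01 in CFAE and -0.17 in C6AE, and 0.62 in 6FAE, 0.51 in AE and 0.37 in Basal. Hoxa minus Hoxd was thus lower in the 3 columns with CHIR99021 than in the 3 without. In CFAE the clusters were nearly level, and with all regions weighted equally the value there was 0.08, above 0. The mean difference between these groups was -0.72. For C6FAE against AE the median difference was -1.19 over the 4 Hoxa regions and -0.03 over the 5 Hoxd regions, where that of all regions was -0.69. The Hoxd region chr2:74541916-74544906, the highest of its cluster, had an RPKM of 15.8, 17.9 and 35.3 in C6FAE, CFAE and C6AE, and of 7.71, 16.1 and 13.7 in 6FAE, AE and Basal. The groups overlapped for this region, since AE was above C6FAE. In ATAC-seq, Hoxa minus Hoxd was 0.36, 0.44 and 0.25 with CHIR99021 and 0.52, 1.14 and 0.54 without, again with no overlap among these 6 columns, and 0.36 in Ctr, which fell within the range of the columns with CHIR99021. In H3K27me3 it was 0.07, 0.04 and 0.02 with CHIR99021 and -0.20, -0.02 and -0.02 without. With all regions weighted equally the columns overlapped in ATAC-seq and H3K27me3 and not in H3K4me3. This order was noticed in the values and carries no test.

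In ATAC-seq, C6FAE was the highest of the 6 columns other than Ctr in 24 of 38 Hox regions, against 28.6% of all regions. It was the lowest in 0 of 38, against 8.67%. The level of Hoxc was 4.73 in C6FAE, 4.18 in CFAE, 4.01 in 6FAE, 3.66 in C6AE, 3.84 in AE, 3.90 in Basal and 3.61 in Ctr. That of Hoxb was 4.62, 4.28, 3.96, 3.67, 3.82, 3.66 and 3.59 in the same order. Both clusters were highest with all 5 chemicals and, on this scale, lowest in Ctr. Relative to the median of each column C6FAE was again the highest, at 0.39 in Hoxb and 0.50 in Hoxc, but Ctr was not the lowest: Hoxb was at -0.06 in Ctr and -0.30 in AE and Basal, and Hoxc at -0.05 in Ctr and -0.28 in AE. Hoxd had 4.21, 3.97, 3.72, 3.71, 3.19, 3.42 and 3.35, with AE the lowest. Relative to the column medians, Hoxd was highest in C6AE, at -0.006, with C6FAE next at -0.019. Hoxa had 4.57, 4.41, 4.24, 3.97, 4.34, 3.95 and 3.71, and there AE was the third highest column.

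Against C6AE, which lacks Forskolin, 13 of 38 regions were at least 2-fold higher in C6FAE, against 18.5% of all regions, and 0 were lower, against 3.66%. By cluster these were 2 of 11 in Hoxa, 4 of 10 in Hoxb, 6 of 8 in Hoxc and 1 of 9 in Hoxd. The median of C6FAE over all regions was itself 0.51 above that of C6AE, and with centred columns 4 Hox regions were higher (5.89% of all) and 0 lower (8.72%). The largest difference of all Hox regions was 1.80 at chr11:96172623-96174439 in Hoxb, where RPKM was 31.6 in C6FAE and 8.39 in C6AE. In the other treatments this region had 20.3 in CFAE, 12.7 in 6FAE, 17.7 in AE, 18 in Basal and 12.3 in Ctr. At chr6:52208771-52210879, the only ATAC-seq region in the segment of Hoxa next to group 13, RPKM was 16.6 in C6FAE, 12.2 in AE, 9.64 in CFAE and 4.32 to 5.56 in the other treatments. At chr15:102796446-102799143 in Hoxc it was 23.4 in C6FAE, 16.9 in CFAE and 7.53 in C6AE. At chr2:74529076-74531482 in Hoxd it was 24.9, 19.3 and 9.94 in the same order. C6FAE was the highest column in each of these 4 regions, which were chosen for their difference from C6AE.

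The regions of highest mean ATAC-seq level were as follows. In Hoxa, chr6:52107061-52112243 had an RPKM between 22.5 (C6AE) and 31.6 (C6FAE), and 28.9 in Ctr. In Hoxc, chr15:102843657-102846547 had 37.8 in C6FAE and 17.5 to 24.0 in the other treatments. In Hoxb, chr11:96212837-96214556 had 30.8 in C6FAE and 15.1 to 21.0 elsewhere. In Hoxd, chr2:74534877-74537070 had 21.5 in C6FAE and 9.55 to 19.9 elsewhere. The largest differences in the other direction against C6AE were small, -0.15 at chr11:96202205-96203808 in Hoxb and -0.36 at chr2:74513760-74514520 in Hoxd, and Hoxa and Hoxc had no region below C6AE.

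**Figure D4:**
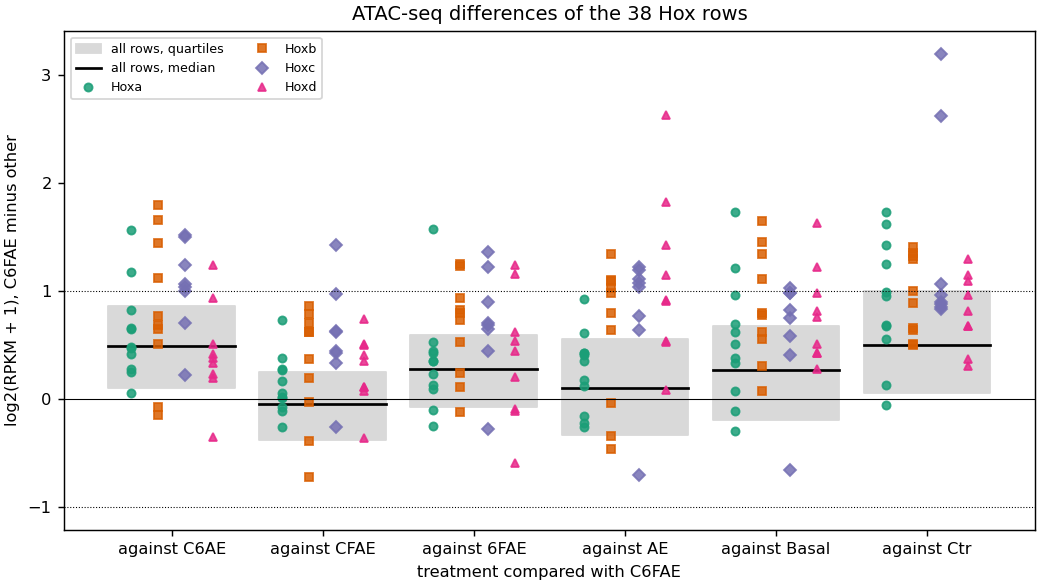
Each point is 1 of the 38 Hox regions, plotted as log2(RPKM + 1) in C6FAE minus that in the other treatment, and the grey box and black line are the quartiles and median of all 36431 regions. No Hox region lies at or below -1 (dotted), and 13 of 38 lie at or above 1 against C6AE.

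Against the other treatments, C6FAE was above CFAE in 30 of 38 regions, against 45.5% of all regions. It was above 6FAE in 31 (70.7% of all), AE in 31 (57.0%), Basal in 35 (66.4%) and Ctr in 37 (77.2%). At chr11:96202205-96203808 in Hoxb, for one, RPKM was 17.3 in C6FAE and 29.1 in CFAE. C6FAE was at least 2-fold higher than Ctr in 15 of 38 regions (25.1% of all), than AE in 13 (12.6%), than Basal in 9 (13.4%), than 6FAE in 7 (8.17%) and than CFAE in 1 (3.72%). It was 2-fold lower in 0 regions in each of these, where 4.42, 8.08, 6.48, 3.48 and 5.64% of all regions were. With centred columns the higher counts were 4 against Ctr (10.3% of all), 8 against AE (10.8%), 5 against Basal (8.28%), 2 against 6FAE (3.6%) and 2 against CFAE (4.28%), and the lower counts stayed at 0 (11.2, 9.69, 10.5, 6.59 and 4.84% of all, in the same order). These comparisons share the C6FAE column. AE was higher than Basal in 3 regions (5.95%) and lower in 2 (5.38%), and Basal was higher than Ctr in 5 (14.2%) and lower in 1 (3.63%). The median difference of the Hox regions was 0.71 against AE and 0.72 against Basal, where that of all regions was 0.10 and 0.27.

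For the Forskolin contrast of the merged ATAC-seq columns, the difference was 0.32 in Hoxa, 0.57 in Hoxb, 0.51 in Hoxc and 0.52 in Hoxd. The columns overlapped in Hoxa (exact permutation p = 0.2) and not in the other clusters (exact permutation p = 0.1 each), and all adjusted values were 0.2 or 0.3. The median over all regions was 0.21, and with centred columns the differences were 0.10, 0.35, 0.29 and 0.31 in the same order. Once centred, the columns overlapped in Hoxa, Hoxc and Hoxd and not in Hoxb. In Hoxd the centred level of C6AE, -0.006, was above those of C6FAE (-0.019), CFAE (-0.321) and 6FAE (-0.215). All Forskolin columns were above the others in 10 of 38 Hox regions, against 15.5% of all.

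The peak lists gave single libraries, so the same contrast was tested on the share of each window under the 20000 peaks of highest score, 6 libraries against 6. Hoxd was covered to 4.94 and 6.09% in the C6FAE libraries, 4.04 and 1.94% in CFAE and 1.29 and 4.12% in 6FAE. Without Forskolin it was covered to 1.97 and 0.45% in C6AE, 0.36 and 0% in AE and 0% in both Basal libraries. The groups overlapped only through the first C6AE library. The means were 3.74 ± 1.81% and 0.46 ± 0.76% (SD, n = 6 each), with a two-sided exact permutation p of 0.00649, adjusted over the 4 clusters to 0.0260. Hoxc was covered to 13.2 and 10.6% in C6FAE, 3.74 and 4.23% in CFAE and 1.89 and 6.90% in 6FAE, and to 4.30 and 0.79% in C6AE, 0.44 and 0.23% in AE and 2.11 and 2.42% in Basal. The means were 6.76 ± 4.37% and 1.72 ± 1.55%, with an exact permutation p of 0.0216 and an adjusted p of 0.0433. In Hoxc the C6FAE libraries stood apart from the rest, and the other Forskolin libraries overlapped with those without. Neither call held with other sets of peaks: the adjusted exact permutation p was 0.0606 in Hoxd and 0.159 in Hoxc with 10000 peaks, 0.0895 and 0.106 with all listed peaks, and 0.455 and 0.0606 with a minimum -log10 q of 1.3.

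**Figure D5:**
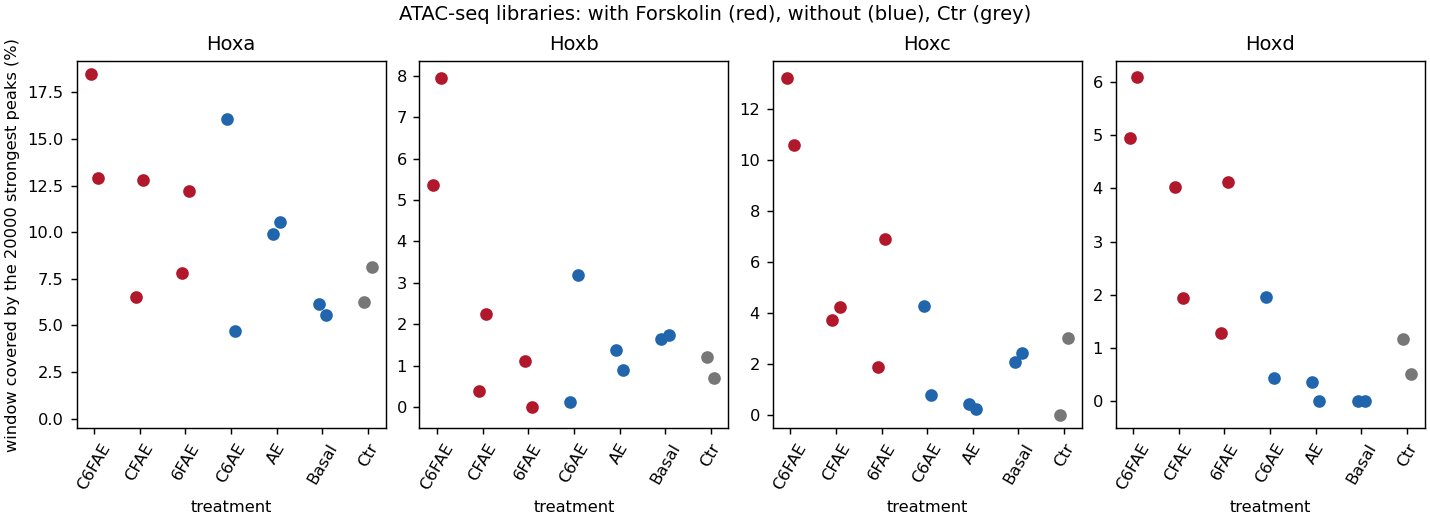
Each point is 1 ATAC-seq library and gives the percentage of the window under its 20000 strongest peaks, in red for treatments with Forskolin, blue for those without and grey for Ctr. In Hoxd the red points lie between 1.29 and 6.09% and the blue between 0 and 1.97%.

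In Hoxa the coverage was 11.8 ± 4.27% with Forskolin and 8.82 ± 4.28% without (exact permutation p = 0.247, adjusted 0.329), and in Hoxb 2.84 ± 3.16% and 1.5 ± 1.02% (exact permutation p = 0.381, adjusted 0.381). In Hoxb the C6FAE libraries had 5.36 and 7.95%, the highest of all, while the CFAE and 6FAE libraries lay at 0 to 2.25%. The Ctr libraries had 6.27 and 8.16% in Hoxa, 1.22 and 0.72% in Hoxb, 0 and 3.01% in Hoxc, and 1.17 and 0.52% in Hoxd. The 2 libraries of a treatment share its chemicals. Taken as means per treatment, 3 against 3, the exact permutation p was 0.1 in Hoxc and Hoxd, the smallest possible. The call of this contrast thus rests on counting libraries as units, and AE and Basal lack other chemicals besides Forskolin. With 1 library left out, the adjusted p of Hoxd stayed between 0.0130 and 0.0519 and passed 0.05 in 7 of 12 cases, failing without C6AE replicate 2, either AE or either Basal library. That of Hoxc passed in 4 of 12 cases (0.0130 to 0.0996) and failed without either C6FAE, either AE or either Basal library, 6FAE replicate 2 or C6AE replicate 2.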

How the data were processed

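ATAC-seq and ChIP-seq of H3K27me3 and H3K4me3 at day 4 were used as deposited. Per the labels and headers, reads were aligned to mm9 with Bowtie2, and each library had its own peak call by the authors with MACS 2.1.2 (p-value threshold 0.05, no local background; broad for ATAC-seq and H3K27me3; ChIP against input). The deposited lists give -log10 p and -log10 q, although the headers say that q was not calculated, the pileup signal and the fold enrichment. The authors' 3 tables give the mean RPKM of bins from deepTools 3.1.0, in 1 column for each treatment, merged over libraries for ATAC-seq. How the regions were chosen is not given in the sources used here. Region edges equalled edges of listed peaks in 100% of rows, so positions were used as 1-based.

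Values were taken as log2(RPKM + 1), and a region was counted as different at 1 or more on that scale (2-fold). These counts have no replicate error. Forskolin contrasts used two-sided exact permutation tests of columns, and of libraries by the 20000 peaks of highest -log10 p (peaks tied at the limit were kept). Labels do not say whether libraries came from separate cultures, so the p-values measure the spread between libraries only. Peak scores depend on depth, and PCR copies of a fragment cannot be recognised in these files. Regions named were the highest, the longest and those with the largest difference each way for C6FAE against C6AE in each cluster and table. The clusters, lists and tests were chosen with earlier results of these data known, and the CHIR99021 split and the Hoxa minus Hoxd difference after seeing the values. Alternatives changed the pseudocount, scaling, filter, fold threshold, peak set and libraries. Python 3.11.15, numpy 2.4.6 and pandas 2.3.3 were used, and the counting was tested on simulated data. The simulated baseline was held above the median RPKM of every H3K27me3 column, so counting at lower values was not tested.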

Additional observations from a re-analysis of the deposited data

Results flagged for a closer look

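The ChIP libraries titled Ctr but labelled with the C6FAE treatment entered no comparison, and they too held signal over the Hox clusters. The H3K27me3 library of unknown condition had listed peaks over 97.4% of the Hoxd window, and the H3K4me3 library of unknown condition over 53.3% of the Hoxa window. The 6 assigned H3K27me3 libraries covered 77.1 to 99.2% of Hoxd, and the 6 assigned H3K4me3 libraries 50.8 to 73.2% of Hoxa. Both values lie within these ranges, but those of other clusters did not all do so. In Hoxc the H3K27me3 library, at 92.1%, was above the 66.6 to 90.6% of the assigned ones, and the H3K4me3 library was below all 6 assigned ones in Hoxb (27.1% against 29.9 to 46.3%) and Hoxc (34.8% against 38.1 to 56.0%).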

How the results depend on the processing

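Centring each column on its median changed the direction of the Forskolin contrast in H3K27me3, to 0.21 in Hoxa, 0.0525 in Hoxb, 0.0745 in Hoxc and 0.24 in Hoxd, and in H3K4me3 of Hoxd, to 0.0064. Quantile normalization gave 0.0727 for the latter. The contrasts of the RPKM tables cannot pass 0.05 with 3 columns a side, and they kept their direction in 47 of 51 alternatives in H3K27me3, 50 of 52 in H3K4me3 and 56 of 56 in ATAC-seq, with leave-one-out ranges of -0.67 to -0.13, -0.88 to -0.23, -0.81 to -0.22 and -0.73 to -0.05 in H3K27me3, -0.99 to -0.70, -0.90 to -0.55, -0.91 to -0.55 and -0.83 to -0.31 in H3K4me3, and 0.24 to 0.45, 0.40 to 0.73, 0.29 to 0.65 and 0.40 to 0.66 in ATAC-seq, in the order Hoxa to Hoxd. By library, the Hoxc difference of 5.05 points lost its call with 10000 peaks (2.61), all listed peaks (12.2), a minimum -log10 q of 1.3 (4.6) and treatment means (5.05). That of Hoxd, 3.28, lost it with 10000 peaks (1.23), all peaks (10.4), the q threshold (0.33) and treatment means (3.28). Hoxa turned to -0.64 with 10000 peaks. With 1 library left out the differences were 1.63 to 4.42 in Hoxa, 0.32 to 1.91 in Hoxb, 3.75 to 6.02 in Hoxc and 2.80 to 3.76 in Hoxd. Divided by genome coverage, an alternative chosen after seeing the data, Hoxc and Hoxd kept their calls (adjusted exact permutation p = 0.0346 and 0.0173). The causes were not tested.

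With the replicate block in the exact permutation test, Hoxc (5.05) had an adjusted p of 0.06 and lost its call, and Hoxd (adjusted p = 0.04) kept it. Whether the replicate numbers pair the samples was not settled. A correlation of deviations over 0.1 was seen in 1 of 21 pairs of treatments, and the values ran from -0.40 (6FAE with C6AE) to 0.13.

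Counts of Hox regions at least 2-fold different moved with every setting, and the values that moved by more than 1.5 times follow, for C6FAE unless other treatments are named. Centred: H3K27me3 higher than C6AE 3 and AE 1, lower than 6FAE 3, AE 0 and Basal 1, H3K4me3 lower than C6AE, AE and Basal 0 and higher than Basal 1, ATAC-seq higher than C6AE 4, CFAE 2, 6FAE 2, AE 8, Basal 5 and Ctr 4, and Basal lower than Ctr 2. Quantile normalization: H3K27me3 higher than C6AE 2, 6FAE 0 and AE 2, lower than 6FAE 1, AE 1 and Basal 2, H3K4me3 lower than C6AE, AE and Basal 0, higher than 6FAE 1 and Basal 1, ATAC-seq higher than C6AE 5, CFAE 2, AE 4, Basal 5 and Ctr 3, and Basal higher than Ctr 3 and lower 2. Pseudocount of 10: H3K27me3 higher than CFAE and 6FAE 0, lower than CFAE, 6FAE, AE and Basal 0, and AE lower than Basal 0, H3K4me3 lower than C6AE 2, AE 0 and Basal 0 and higher than 6FAE 0, ATAC-seq higher than C6AE 2, CFAE 0, 6FAE 0, AE 2, Basal 0 and Ctr 2, AE higher and lower than Basal 0, and Basal higher than Ctr 1 and lower 0. Pseudocount of 0.1: H3K27me3 higher than C6AE 1, H3K4me3 lower than CFAE 1, ATAC-seq higher than CFAE 2, and Basal lower than Ctr 2. Without the lowest quartile of mean RPKM: H3K27me3 lower than CFAE 0 and higher than 6FAE 0, H3K4me3 lower than C6AE 8, AE 1 and Basal 0 and higher than 6FAE 1, ATAC-seq higher than 6FAE 3, AE higher than Basal 1 and lower 1, and Basal lower than Ctr 0. Threshold of 1.5-fold: H3K27me3 higher than C6AE 2 and AE 1, lower than C6AE 4 and AE 10, and AE lower than Basal 4, H3K4me3 lower than CFAE 6, AE 13 and Basal 9 and higher than 6FAE 5, ATAC-seq higher than C6AE 21, CFAE 11, 6FAE 16, AE 22, Basal 23 and Ctr 31, lower than CFAE, 6FAE, AE and Basal 1 each, AE higher than Basal 5, and Basal lower than Ctr 2. Of 240 such values 150 stayed within 1.5 times. With regions wholly inside the window, Hoxd had 0 in H3K27me3, and no level could be had there. A stricter overlap of the marks, over at least 50% of the shorter region, kept all 12 counts within 1.5 times.

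Depth was lowest in the 6FAE library of H3K27me3 and the C6AE library of H3K4me3.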

Other observations

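The libraries of unknown condition are given by value. The H3K27me3 library, with 2309438 tags, had listed peaks over 71.9% of Hoxa, above the 41.9 to 71.4% of the assigned libraries, and over 87.2% of Hoxb, within their 58.4 to 90.0%, and its longest Hoxc peak, of 87694 bp, was the 3rd longest of its list. The H3K4me3 library, with 3281444 tags, covered 27.7% of Hoxd, where the assigned ones covered 18.6 to 45.2%, and its longest Hoxa peak had 6365 bp. That is shorter than the 32106 and 36942 bp of AE and Basal.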
